A study of Mus musculus with 6 samples.

Results

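Keratins are the intermediate filament proteins of epithelial cells, and each filament is built from pairs of a type I and a type II keratin. In the epidermis, basal keratinocytes make Krt5 (type II) with Krt14 (type I), together with the type I keratin Krt15. Cells that leave the basal layer switch to Krt1 (type II) with Krt10 (type I), and further type II keratins mark later layers or other compartments. The expression of 10 such genes was examined among the 24453 gene rows of the deposited counts, chosen by symbol: 3 basal keratins (Krt5, Krt14, Krt15), 5 suprabasal keratins (Krt1, Krt10, Krt2, Krt77, Krt78), Krt79 of the upper hair follicle, and Krt80, a type II keratin found in many epithelia. The RNA came from sorted skin cells of newborn mice (postnatal day 0), with 3 libraries of genotype Control and 3 of genotype Ring1a-/- Ring1b-/-, called 2KO in the titles and here. These 2 genes, Ring1 and Rnf2 by symbol, encode the ubiquitin ligases of Polycomb repressive complex 1, which represses genes through chromatin. The labels used here state no alleles beyond these, no Cre driver, strain or pooling of animals, and they do not say that libraries come from separate animals. The p-values therefore measure the spread between these libraries, which may be technical.

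The libraries held between 24759973 and 30798564 counts. Expression is given as CPM, the count relative to the TMM-scaled library size, where 1 count equals 0.0323 to 0.0392 CPM. The whole-gene counts of the targeted genes did not follow the labels: Ring1 was at 19.5, 22.4 and 3.37 CPM in control and at 1.84, 7.34 and 14.1 CPM in 2KO, and Rnf2 at 47.1 to 79.5 CPM in control and 66.4 to 89.2 CPM in 2KO. Each direction given here is therefore between libraries labelled control and libraries labelled 2KO. The labels name hair follicle cells, while the attached protocol describes sorting of interfollicular epidermis with Sca1, the product of Ly6a. Both kinds of marker were present. The follicle factors Sox9 (211 to 510 CPM over the 6 libraries) and Lhx2 (140.1 to 421 CPM) were detected together with the interfollicular keratins described below, while Cd34, a marker of bulge stem cells, was at or below 0.887 CPM and Ly6a between 1.92 and 7.28 CPM. Markers of immune cells, endothelium and skeletal muscle were low, with summed levels of at most 17.2, 15.3 and 4.71 CPM in any library, and the Langerhans cell gene Cd207 had 0 counts in each. The 10 keratin genes made up 1.37% to 3.38% of the counts in each library. In these bulk libraries fewer cells of a type and less RNA per cell cannot be told apart.

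All 10 genes passed the filter on low counts. By edgeR's quasi-likelihood test, adjusted over 14972 genes, Krt77 was lower in 2KO (1 of 10, background 2.42% of tested genes) and Krt2 was higher (1 of 10, background 6.61%), while the other 8 did not pass the threshold of an adjusted p of 0.05. In either direction 9.02% of tested genes passed. Krt2 passed the filter only through the 2KO libraries, where it is high. The groups did not overlap in CPM for 3 of the 10 genes, Krt77, Krt10 and Krt2, against 28.4% of all tested genes (13.1% lower and 15.2% higher). The median log2 fold change (2KO against control) of the 10 genes was 0.14, beside -0.016 over all tested genes, with 5 genes above 0 and 5 below.

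**Figure D1:**
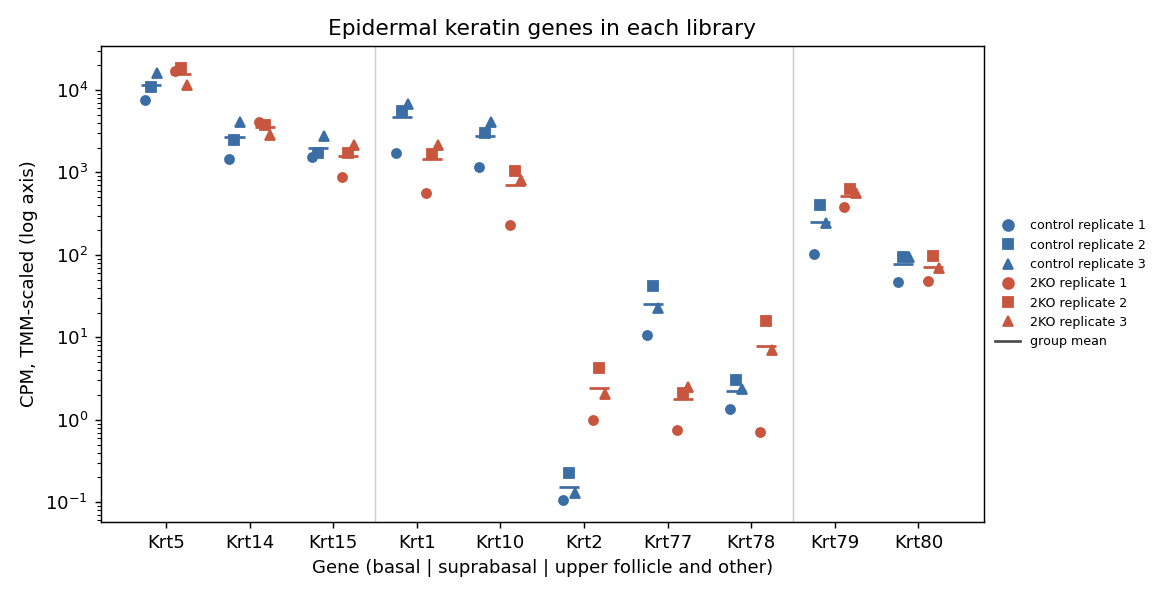
Level of each keratin gene in each library (y axis, TMM-scaled CPM on a log axis), with control in blue and 2KO in red, the replicate number as the symbol and the group mean as a bar. Krt77 and Krt10 lie lower in every 2KO library than in any control library and Krt2 higher, while Krt5, Krt14 and Krt15 overlap between the groups.

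Per kb of the longest annotated protein-coding transcript, which allows levels of different genes to be set side by side, Krt5 was the most abundant of the 10 in both groups, at 5243 ± 1964 CPM per kb in control and 7155 ± 1669 in 2KO (SD, n = 3 libraries per group here and throughout). In control it was followed by Krt1 (1901 ± 1065), Krt14 (1568 ± 772), Krt10 (1314 ± 708) and Krt15 (1179 ± 376), and neighbours among these 4 overlapped in their ranges. Krt79 (118 ± 70.6), Krt80 (19.9 ± 6.81), Krt77 (8.601 ± 5.39), Krt78 (0.657 ± 0.251) and Krt2 (0.0591 ± 0.0242) came after them, of which only Krt80 and Krt77 overlapped as neighbours. In 2KO the order was Krt5, Krt14 (2094 ± 374), Krt15 (937 ± 382), Krt1 (601 ± 334), Krt10 (333 ± 201), Krt79 (249 ± 58.7), Krt80 (18.2 ± 6.19), Krt78 (2.29 ± 2.23), Krt2 (0.927 ± 0.627) and Krt77 (0.613 ± 0.317). By this length Krt1 held rank 2 in control and rank 4 in 2KO, and Krt77 rank 8 and rank 10. The ranks depend on the length chosen. All annotated exons of Krt1 together cover 4415 bases, against 2455 in the transcript used. For Krt79 the lengths are 4753 and 2097 bases, and for Krt80 6393 and 3919. The place of Krt1 relative to Krt14, Krt10 and Krt15 is therefore not settled. In 2KO the ranges of Krt15, Krt1, Krt10 and Krt79 overlapped from each neighbour to the next, as did those of Krt78, Krt2 and Krt77.

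The basal keratins did not pass the test. Krt5 (GRCm38, as for the positions that follow: chromosome 15, 101707070 to 101712898, minus strand) stood at 7636, 10756.5 and 16166 CPM in the control libraries and at 16813, 18716 and 11630 CPM in the 2KO libraries, a log2 fold change of 0.45 (SE 0.30, edgeR adjusted p = 0.453). Control replicate 3 lay above 2KO replicate 3, so the groups overlapped. Krt14 (chromosome 11, 100203162 to 100207548, minus strand), the partner of Krt5, stood at 1475, 2444 and 4067 CPM in control and at 4087, 3727 and 2852 CPM in 2KO (log2 fold change 0.42, SE 0.33, edgeR adjusted p = 0.541). Krt5 and Krt14 followed each other closely from library to library: the ratio of Krt5 to Krt14, per kb, lay between 3.07 and 4.002 in control and between 3.15 and 3.88 in 2KO. Their centred log2 levels differed by a root mean square of 0.15 over the 6 libraries, the smallest value of the 45 pairs among the 10 genes. A share of 2.38% of the windows of read length (100 bases) in the Krt5 transcript occurred word for word in transcripts of Krt6a or Gm5478, and 2.88% of those of Krt14 in Krt16, so a small part of their counts could be split between genes. The transcripts of the other 8 genes shared no such window with another annotated gene.

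Krt15 (chromosome 11, 100131758 to 100135928, minus strand), a keratin of basal and outer root sheath cells, stood at 1550.4, 1726 and 2736 CPM in control and at 886, 1731 and 2163 CPM in 2KO. Its log2 fold change was -0.33 (SE 0.33, edgeR adjusted p = 0.649). Only 2KO replicate 1 lay below the control range. In that library the ratio of Krt15 to Krt14, per kb, was 0.217, against 0.464 and 0.758 in the other 2KO libraries and 0.672 to 1.05 in control.

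Of the suprabasal pair, Krt10 had lower values in 2KO without overlap and Krt1 overlapped by a margin of 1 library, and neither passed the test. Krt10 (chromosome 11, 99385254 to 99389364, minus strand) stood at 1149, 3037 and 4071 CPM in control and at 232, 1053 and 807 CPM in 2KO, a log2 fold change of -1.98 (SE 0.56, edgeR adjusted p = 0.0598). Krt1 (chromosome 15, 101845426 to 101850794, minus strand) stood at 1709.8, 5615 and 6675 CPM in control and at 567, 1691 and 2165 CPM in 2KO (log2 fold change -1.66, SE 0.55, edgeR adjusted p = 0.101). Control replicate 1 was the lowest control library for both genes and 2KO replicate 1 the lowest 2KO library. Within a group the highest library exceeded the lowest 3.54-fold in control and 4.54-fold in 2KO for Krt10, and 3.90-fold and 3.82-fold for Krt1. The distance between the group means was of the same size, 3.95-fold for Krt10 and 3.16-fold for Krt1. Without control replicate 1 both passed as lower (edgeR adjusted p = 0.0297 for Krt10 and 0.0321 for Krt1), as they did in a comparison without either replicate-1 library (0.00541 and 0.00761). DESeq2 called both lower (adjusted p = 0.000797 for Krt10 and 0.00669 for Krt1). The adjusted p of Krt10 in edgeR was 0.165 without control replicate 3 and 0.147 without 2KO replicate 3.

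Set against the basal keratins of the same library, both suprabasal keratins separated the groups. The ratio of Krt10 to Krt14, per kb, was 0.632, 1.01 and 0.812 in the control libraries and 0.0461, 0.229 and 0.230 in the 2KO libraries, so that its mean was 4.86-fold lower in 2KO. For Krt1 over Krt5 it was 0.200, 0.467 and 0.370 in control and 0.0302, 0.0809 and 0.167 in 2KO, 3.73-fold lower on average. In each case 2KO replicate 1 had the lowest ratio and no 2KO library reached the control range. These ratios were chosen with the levels known and are given as a description, with no test. The suprabasal partners stayed close to each other: Krt1 over Krt10 lay between 1.27 and 1.58 in control and between 1.37 and 2.29 in 2KO, with overlap.

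**Figure D2:**
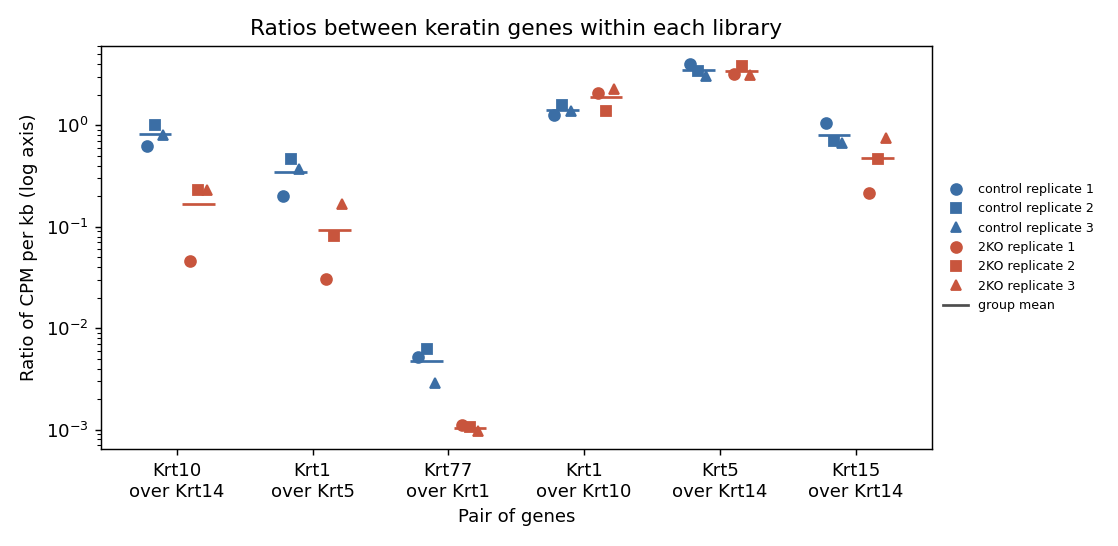
Ratio of 2 keratin genes within each library (y axis, CPM per kb of one gene over that of the other, log axis), with control in blue, 2KO in red, the replicate number as the symbol and the group mean as a bar. The suprabasal over basal ratios and Krt77 over Krt1 do not overlap between the groups, while the partner ratios Krt1 over Krt10 and Krt5 over Krt14 do.

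Krt77 (chromosome 15, 101858731 to 101869705, minus strand), a type II keratin of suprabasal cells whose gene lies next to Krt1, was the only one of the 10 to pass as lower. It had 300, 1301 and 703 counts in the control libraries (10.6, 42.0 and 23.0 CPM) and 19, 64 and 64 counts in the 2KO libraries (0.745, 2.14 and 2.51 CPM). Its log2 fold change was -3.80 (SE 0.60, edgeR adjusted p = 0.00463), and the lowest control library stood above the highest 2KO library. The fold change lay between -4.15 and -3.22 whichever library was left out, past the threshold each time. Without the 2 libraries numbered 3, which leaves 2 in each group, the adjusted p was 0.0574. The ratio of Krt77 to Krt1, per kb, was 0.00521, 0.00627 and 0.00288 in control and 0.00110, 0.00106 and 0.000971 in 2KO, so the mean of Krt77 was lower by a further 4.59-fold where each library's Krt1 is the reference.

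Krt2 (chromosome 15, 101810689 to 101818169, minus strand), a keratin of the upper spinous and granular layers, passed as higher, at very low levels. It had 3, 7 and 4 counts in the control libraries (0.106, 0.226 and 0.131 CPM) and 25, 126 and 53 counts in the 2KO libraries (0.980, 4.21 and 2.08 CPM). Every 2KO library stood above every control library (log2 fold change 3.93, SE 0.87, edgeR adjusted p = 0.0223). This call was lost without any 1 control library (adjusted p = 0.0735, 0.0511 and 0.086 for replicates 1, 2 and 3) or without 2KO replicate 2 (0.11), and Krt2 was not tested where at least 1 CPM in 3 libraries was required. Krt78 (chromosome 15, 101946001 to 101954287, minus strand), another type II keratin of suprabasal cells, stood at 1.35, 3.07 and 2.35 CPM in control and at 0.706, 15.95 and 6.98 CPM in 2KO. The 2KO libraries spread 22.6-fold, with replicate 1 below and the other two above all controls, and the test was not passed (log2 fold change 1.80, SE 0.86, edgeR adjusted p = 0.265). Without 2KO replicate 1 Krt78 passed as higher (adjusted p = 0.03).

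The sequences before the start sites of Krt77, Krt2 and Krt10 are shown because these are the genes whose groups did not overlap, in opposite directions. Each run holds the 250 bases upstream of the start site of RefSeq (GRCm38.p6), 5′ to 3′ on the strand of the gene, and capitals mark matches on either strand to the TATA box (TATANA), AP-1 (TGANTCA), AP-2 (GCCNNNGGC) and the KLF box (CACCC), where overlapping matches run together. The windows are chr15:101869706-101869955 for Krt77, chr15:101818170-101818419 for Krt2 and chr11:99389365-99389614 for Krt10, all on the minus strand.
Krt77: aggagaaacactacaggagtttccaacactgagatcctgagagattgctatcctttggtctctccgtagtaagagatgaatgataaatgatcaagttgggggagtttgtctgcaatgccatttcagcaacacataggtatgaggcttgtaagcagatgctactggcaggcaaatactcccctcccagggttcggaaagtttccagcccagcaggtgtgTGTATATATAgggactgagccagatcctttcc
Krt2: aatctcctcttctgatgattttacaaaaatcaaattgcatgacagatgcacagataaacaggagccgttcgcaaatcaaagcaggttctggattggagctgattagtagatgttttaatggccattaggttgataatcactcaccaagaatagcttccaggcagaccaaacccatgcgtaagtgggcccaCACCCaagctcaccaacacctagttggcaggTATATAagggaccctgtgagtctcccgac
Krt10: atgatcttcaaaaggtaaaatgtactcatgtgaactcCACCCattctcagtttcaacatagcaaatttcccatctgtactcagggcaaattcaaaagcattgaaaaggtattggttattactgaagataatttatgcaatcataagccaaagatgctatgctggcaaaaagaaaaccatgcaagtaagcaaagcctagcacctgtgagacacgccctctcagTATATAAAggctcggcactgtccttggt
All 3 hold a TATA box match that starts 28 to 30 bases before the start site. A match at any position of the window, on either strand, was found in 22.6% of 32851 promoter windows of the same length. A KLF box match was found in Krt2, 60 bases before the start, and in Krt10, 213 bases before it, as in 52.0% of all windows. None of the 3 held the AP-1 or AP-2 letters (6.75% and 13.7% of all windows). Of CpG, the dinucleotide that is dense at CpG islands, the windows held 2 in Krt77, 4 in Krt2 and 2 in Krt10. Over all windows the median was 6 and the lower quartile 2. In the same table Krt5, Krt78 and Krt79 had 2, 6 and 3 CpG and no TATANA match, and the window of Krt14 starts 1518 bases from the GENCODE start of the gene and was not used. These matches describe letters in the windows, not bound sites.

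Krt79 (chromosome 15, 101929332 to 101940324, minus strand), a keratin of the upper follicle and of the cells that form the hair canal, stood at 103, 399 and 243 CPM in control and at 384, 621 and 558 CPM in 2KO. Control replicate 2 lay above 2KO replicate 1, and the test was not passed (log2 fold change 1.07, SE 0.41, edgeR adjusted p = 0.157). Without control replicate 2 Krt79 passed as higher (adjusted p = 0.038). Of 6 tested genes of the list of upper follicle markers, which includes Krt79, none passed as higher and 1 as lower (background 6.61% higher and 2.42% lower). The lower gene was Lrig1, a stem cell gene of that region (254, 201 and 182 CPM against 77.8, 81.5 and 103 CPM, edgeR adjusted p = 0.00399). The summed level of the list was 915 to 1036 CPM in control and 1258 to 1652 CPM in 2KO. Most of that sum in every library came from Krt79 and Krt17 (423, 344 and 516 CPM in control, 963, 861 and 546 CPM in 2KO). The sum is therefore no measure of the other genes of the list. The antimicrobial gene Defb6 of that list was at or below 0.0646 CPM. Without control replicate 2, 2 genes of the list, Krt79 among them, were higher, and without 2KO replicate 3, 1 was. Krt80 (chromosome 15, 101347444 to 101370162, minus strand) stood at 47.2, 93.6 and 93.3 CPM in control and at 48.4, 96.7 and 68.4 CPM in 2KO, with replicate 1 lowest in both groups. Its log2 fold change was -0.13 (SE 0.32, edgeR adjusted p = 0.871).

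Control replicate 1 was the lowest control library for 10 of the 10 genes, and 2KO replicate 1 the lowest 2KO library for 8 of 10, the exceptions being Krt5 and Krt14. For those 2KO replicate 1 was high, at 16813 CPM of Krt5 and, above every other library, 4087 CPM of Krt14. The share of all tested genes that were lowest in the same libraries was not computed, so these counts are a description. Summed over the 5 suprabasal genes, the control libraries stood at 2871, 8697 and 10772 CPM and the 2KO libraries at 802, 2767 and 2984 CPM, so control replicate 1 lay between the 2KO libraries. Nearly all of that sum in every library came from Krt1 and Krt10, so it is no measure of Krt77, or of Krt2 and Krt78, which had higher means in 2KO. The ribosomal RNA row Rn45s, at 5.18%, 7.62% and 10.3% of counts in control and 5.88%, 6.93% and 2.35% in 2KO, was lowest in control replicate 1 among controls and in 2KO replicate 3 among 2KO. Its part in the spread of the keratin genes was not tested.

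The genes whose pattern was most like that of Krt10 differed from it by a root mean square of 0.27 to 0.33 in centred log2 CPM over the 6 libraries, among 9139 tested genes with a mean of at least 10 CPM. Since all 6 libraries enter this distance, the choice of the genes fixes the direction in which their groups differ, and their values are a description. They were, in order, Capns2, a small calpain subunit, Them5, Il20rb, a receptor subunit for cytokines of the IL-20 group, Krt1, and Serpinb12, a serine protease inhibitor. Of these, Capns2 (22.4, 51.9 and 86.2 CPM in control, 6.55, 19.0 and 20.8 CPM in 2KO), Them5 (18.7, 29.0 and 44.0 CPM against 2.78, 9.81 and 9.30 CPM) and Il20rb (33.6, 71.4 and 76.3 CPM against 5.29, 17.3 and 21.5 CPM) had no overlap between the groups. Krt1 and Serpinb12 overlapped. Krt77 was most like Cyp4b1, a cytochrome P450, Clca3a2, Tmprss4, a membrane serine protease, Skint1 and Ccer2, at distances of 0.44 to 0.60. Clca3a2 was at 279.8, 495 and 543 CPM in control and at 14.2, 35.5 and 29.7 CPM in 2KO, although reads of the Clca3 and Skint families may be shared between copies. For Krt14 the nearest were Slc35c2, Afmid, Nubp2, Tmem198b and Aimp2 (0.12 to 0.15), and Krt5 lay at 0.15.

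The list of stress keratins and companion layer keratins had a median log2 fold change of 1.32 over 5 tested genes, and 1 of them, Krt6a, was higher. Krt17 (mean 428 CPM in control and 790.4 CPM in 2KO), Krt16 (127 and 316 CPM) and Krt6b (15.3 and 147 CPM) had higher means without passing (edgeR adjusted p = 0.0514, 0.159 and 0.069), and Krt75 did not pass either (0.437). Without control replicate 1, 3 of the 5 were higher, without 2KO replicate 3, 2 were, and without 2KO replicate 2, 1 was higher and 1 lower. The call of Krt6a was lost without the pair of libraries numbered 3 (adjusted p = 0.0568). Markers of other cells of the skin also moved, beside a background of 2.42% of tested genes lower and 6.61% higher. Of 14 tested genes of the hair shaft, its inner root sheath and the matrix 10 were lower (7 or 8 with any 1 library left out), and their summed level was 736 to 868 CPM in control and 335 to 481 CPM in 2KO. Of the 10, Krt25, Krt27, Krt28, Krt71 and Krt73 passed the low-count filter through the control libraries, where they are high. That number of lower genes is therefore a description. In the list of outer root sheath and bulge 2 of 8 were lower (Fzd5 and Lgr5), and in that of sebocytes 2 of 8 (Far2 and Mgst1). The count of the first list was 0 without control replicate 1 or 2KO replicate 3, 1 without 2KO replicate 2 and 3 without control replicate 2. That of the second was 0 without control replicate 1 or 3 or 2KO replicate 1 or 3, and 1 without 2KO replicate 2. Of 8 fibroblast genes 2 were higher (Fbn1 and Pdgfra), with sums of 436 to 801 CPM in control and 748 to 933 CPM in 2KO. Of 5 Merkel cell genes 1 was higher (Krt18), with sums of 7.13 to 15.3 CPM and 17.5 to 50.7 CPM. Krt18 had means of 1.67 CPM in control and 23.9 CPM in 2KO, while Krt8 (1.55 and 0.786 CPM) and Krt20 (2.06 and 0.349 CPM) had lower means in 2KO. The median log2 fold change of the Merkel list was -0.51, and DESeq2 called 2 of its genes lower and 1 higher. Its sum is therefore no measure of the other genes of that list. No gene passed in the lists of interfollicular basal cells (8 tested), interfollicular suprabasal cells (6), melanocytes (7), endothelium (4), immune cells (4) or muscle (3), but 2 suprabasal genes were lower without control replicate 1 and 1 without 2KO replicate 2. The sum of the suprabasal list was 3145 to 11672 CPM in control and 1248 to 3871 CPM in 2KO. Most of it in every library came from Krt1 and Krt10, so it is no measure of the other genes of that list. The part of these other cells in the keratin values was not tested.

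The genes of the 2 keratin clusters, the epidermal keratins among them, moved unevenly. On chromosome 11, which holds the type I genes, 7 of 20 tested keratins were lower in 2KO and 0 higher, and on chromosome 15, which holds the type II genes and Krt18 at its end, 4 of 19 were lower and 4 higher (background 2.42% lower and 6.61% higher). Krt77 is counted among the 4 lower, and Krt2, which passed the filter only through the 2KO libraries, among the 4 higher. Keratins with almost no counts in either group were not tested. Krt24, Krt25, Krt26, Krt27, Krt28, Krt73 and Krt90 (at most 0.314 CPM in any 2KO library) and Krt71 (at most 0.51 CPM), all lower, passed the low-count filter through the control libraries, where they are high. These counts are therefore a description and no share of all keratins. Krt28 of the inner root sheath, next to Krt10, had 701, 492 and 747 counts in control and 1, 0 and 0 counts in 2KO (edgeR adjusted p = 6.61e-05). Krt73, next to Krt2, was at 7.56, 9.62 and 6.31 CPM in control and at 0.314, 0.0334 and 0 CPM in 2KO (adjusted p = 0.0043), while Krt2 itself was higher. Krt5 stood between Krt6a, a stress keratin that was higher in 2KO (3.48, 41.1 and 37.6 CPM against 887, 1085 and 584 CPM, adjusted p = 0.0043), and Krt71 of the inner root sheath, which was lower (21.1, 11.7 and 13.9 CPM against 0.51, 0.0668 and 0.235 CPM, adjusted p = 0.001). Krt7, a keratin of simple epithelia next to Krt80, was higher (mean 14.5 CPM in control and 153 CPM in 2KO, adjusted p = 0.0183), a call lost without 2KO replicate 3 (0.0547) and without both libraries numbered 3 (0.139). Among all 45 other keratin genes of the files 30 were tested, of which 10 were lower and 3 higher, with a median log2 fold change of -0.75. The number of lower genes was 6 without any 1 of the control libraries, and the number of higher ones 5 without control replicate 1.

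**Figure D3:**
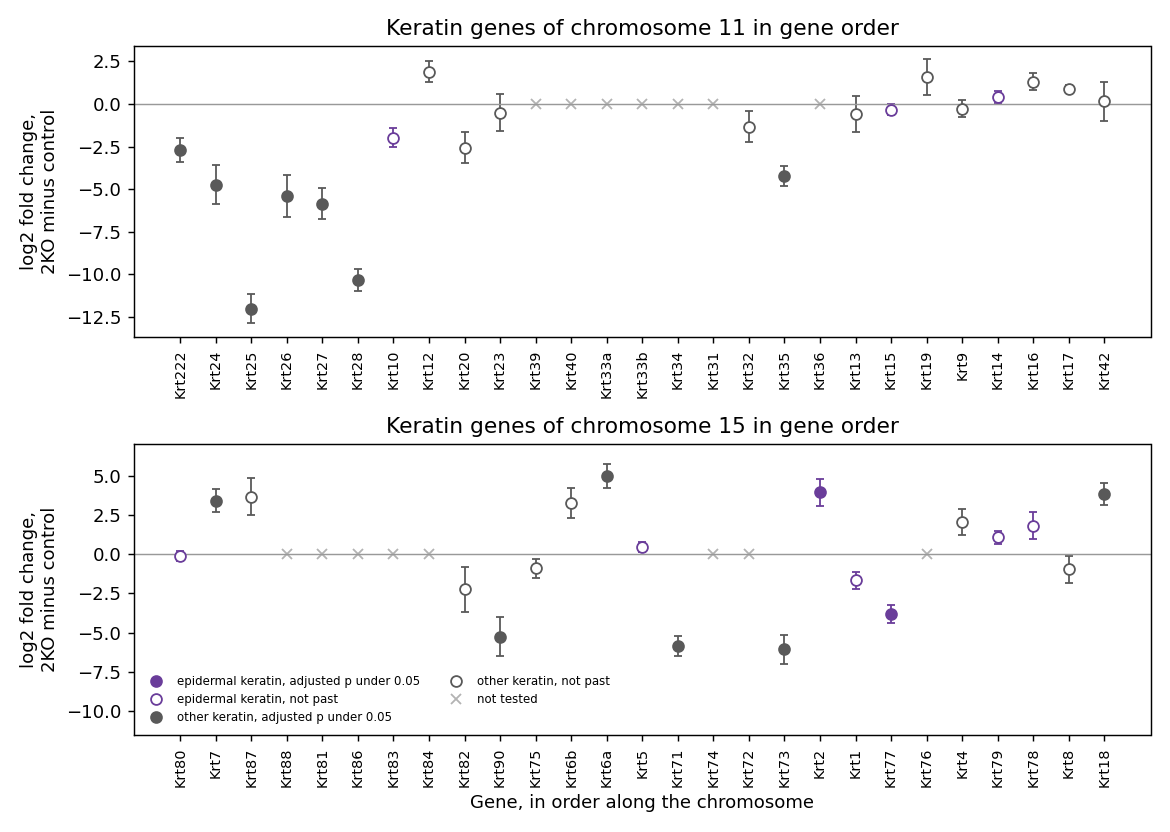
Log2 fold change of 2KO against control (y axis, error bars SE of edgeR's fit) for the keratin genes of chromosomes 11 and 15 in gene order (x axis), with the 10 epidermal keratins in purple, filled points past the threshold and crosses at 0 for genes that were not tested. Krt77 and Krt2 are the 2 filled purple points, and values for genes with almost no counts in a group, such as Krt25 and Krt28, depend on the prior count of the fit and are no bound.

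Genes that anchor, bundle or regulate keratin filaments were taken from lists chosen in the same way. Of 11 tested genes of hemidesmosomes and basement membrane, which anchor basal keratin filaments, none passed (median log2 fold change 0.15). Settings in which 1 of them was higher included leaving out 2KO replicate 3, no low-count filter, DESeq2 size factors in edgeR, DESeq2 and limma-voom. The most abundant were Dst, at 6482, 4928 and 3877 CPM in control and 6310, 3677 and 6924 CPM in 2KO, and Col17a1, at 1750.1, 2109 and 2299 CPM and 1619, 1986 and 1665 CPM. Plec, the linker between keratins and integrins, was at 1089, 1323 and 1301 CPM in control and 2879, 1847 and 1797 CPM in 2KO without overlap, but did not pass (edgeR adjusted p = 0.0512). Of 13 desmosome genes, which tie keratin filaments to cell junctions, 3 were higher and none lower (background 6.61% higher and 2.42% lower). These were Pkp2 (2.94, 3.81 and 0.752 CPM against 19.96, 32.3 and 24.99 CPM, adjusted p = 0.00475), Dsg2 (238, 295 and 225 CPM against 579, 436 and 499 CPM, adjusted p = 0.00939) and Dsg3 (293, 376 and 309 CPM against 686, 600 and 628 CPM, adjusted p = 0.00716). Dsp and Perp, the most abundant, did not pass (adjusted p = 0.679 and 0.993). The 3 calls held with each single library left out, and that of Pkp2 alone without the pair of libraries numbered 3.

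Among 16 tested genes of filament aggregation and of the cornified envelope, 2 were lower and none higher (background 2.42% lower and 6.61% higher), with a median log2 fold change of 0.14. Both were transglutaminases, enzymes that crosslink envelope proteins: Tgm5 (49.3, 25.8 and 54.7 CPM in control, 0.0784, 1.94 and 1.45 CPM in 2KO, edgeR adjusted p = 0.00319) and Tgm3 (15.1, 42.1 and 42.9 CPM against 5.61, 8.14 and 7.77 CPM, adjusted p = 0.00939). Both calls were lost without the pair of libraries numbered 3 (0.0665 and 0.117). The suprabasal genes Krtdap (194, 480 and 624 CPM against 368, 873 and 515 CPM), Sbsn (35.4, 68.9 and 86.8 CPM against 44.6, 114 and 68.7 CPM) and Lor (2.16, 22.3 and 24.9 CPM against 9.69, 50.2 and 23.3 CPM) overlapped between the groups with higher means in 2KO, and none of them passed (edgeR adjusted p = 0.629, 0.784 and 0.66). Of the same list Calm4 (54.7, 106 and 190.2 CPM against 26.7, 89.0 and 33.0 CPM) and Casp14 (88.1, 141 and 145 CPM against 7.29, 71.1 and 65.6 CPM), a protease of the upper layers, had lower means without passing (0.201 and 0.244). Sbsn, Lor, Calm4 and Casp14 were chosen after their values were seen, and Krtdap as among the 2 most abundant genes of the list. Ppl, the most abundant, overlapped between the groups and did not pass (edgeR adjusted p = 0.744). The number of lower genes in the list was 3 without 2KO replicate 2, and 1 gene was higher without 2KO replicate 1.

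Of 24 tested regulators of basal and suprabasal keratin genes, 3 were lower and 2 higher in 2KO, with a median log2 fold change of -0.07. The background is 2.42% lower and 6.61% higher, so the share of higher regulators is close to that of all tested genes. Prdm1, a transcriptional repressor, was at 106, 79.7 and 54.9 CPM in control and 21.3, 13.2 and 27.2 CPM in 2KO (edgeR adjusted p = 0.00613). Pou3f1, a POU factor, was at 44.2, 96.2 and 114 CPM and 26.8, 27.0 and 25.4 CPM (adjusted p = 0.0112), and the vitamin D receptor Vdr at 219.6, 204 and 202 CPM and 43.8, 79.8 and 99.0 CPM (adjusted p = 0.00934). Grhl3, a factor of barrier formation, was higher (81.5, 101 and 110 CPM against 153, 327 and 226 CPM, adjusted p = 0.0177), as was Notch1, a receptor that acts in the switch from the basal to the suprabasal state (647, 663 and 748 CPM against 1029, 1508 and 1399.8 CPM, adjusted p = 0.0151). Trp63, a transcription factor of basal keratinocytes, lay lower without overlap (1951, 1757 and 1687 CPM against 1238, 1179 and 1351 CPM) but did not pass (adjusted p = 0.0872). Grhl3 lost its call when control replicate 1 (0.0603), control replicate 2 (0.0503) or 2KO replicate 2 (0.0532) was left out, and Notch1 without control replicate 2 (0.0611) or 2KO replicate 2 (0.0555). Without the pair of libraries numbered 3 the calls of Pou3f1 (0.134), Grhl3 (0.123) and Notch1 (0.115) were lost.

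**Figure D4:**
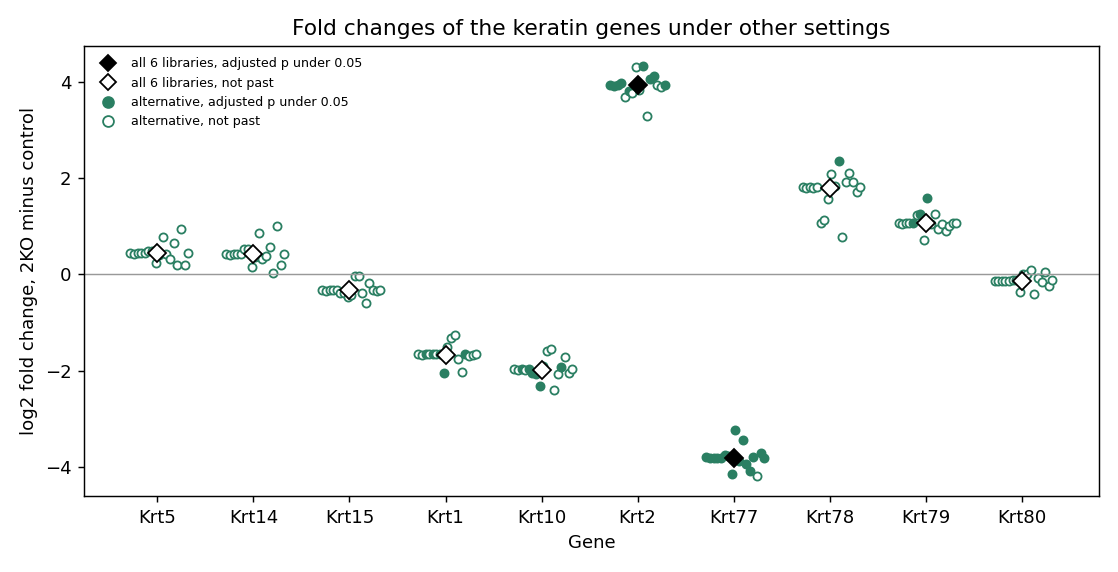
Log2 fold change of 2KO against control (y axis) for each epidermal keratin gene in the comparison of all 6 libraries (black diamonds) and under 17 alternatives (green circles, 16 for Krt2), filled where the edgeR, limma-voom or DESeq2 adjusted p was under 0.05. Krt77 stays between -4.18 and -3.22, Krt1 and Krt10 stay below 0 with mixed calls, and Krt80 lies on both sides of 0.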

How the data were processed

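RNA sequencing counts of 6 libraries, 3 per group, were analysed. Each deposited file gives 1 library's raw counts, the whole number of reads assigned to each gene symbol. Per the submitters' processing notes, the authors used the build mm10 with HTSeq 0.6.1, TopHat2 2.0.13, DESeq2 1.6.3 and Cufflinks 2.2.1; roles, annotation and strand setting: not given in the sources used here. The cDNA was amplified before library construction, per the labels' protocols. Genes annotated opposite to exons of Krt5, Krt10 and Krt80 (Gm44323, Gm11940 and Gm35853) could add reads if strand was not used, and were not analysed here.

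With edgeR 4.0.16 in R 4.3.3, filterByExpr left 14972 genes, which were scaled by TMM and compared by edgeR's quasi-likelihood test with no covariate, adjusted by Benjamini-Hochberg over all tested genes. SEs were taken as the size of the log2 fold change over √F. Of alternatives, 17 were run, with limma 3.58.1 and DESeq2 1.42.0 among them, and edgeR's fit was tested on simulated counts. Positions and transcript lengths are from GENCODE vM21 (GRCm38), and promoter sequences from RefSeq (GRCm38.p6), where 7 of the 10 genes had an entry; Krt15, Krt1 and Krt80 had none.

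The keratin genes and the lists were chosen with earlier results of these data known. Named genes were all 10 keratins, the targeted and sort genes, from each list up to 4 genes past the threshold and the 2 most abundant, neighbours in the keratin clusters past the threshold, and the 5 genes nearest in pattern to Krt10, Krt14 and Krt77. Plec, Sbsn, Lor, Calm4, Casp14, Krt16, Krt6b, Krt75 and the single genes of the cell type lists were named in addition after their values were seen.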

Additional observations from a re-analysis of the deposited data

How the results depend on the processing

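In the comparison of all libraries 362 of the tested genes were lower and 989 higher in 2KO, and 1 epidermal keratin each way. With single libraries left out these numbers ranged from 184 to 347 and from 615 to 854, and those of the keratins from 1 to 3 lower and from 0 to 2 higher. Without the pair of libraries numbered 3, 72 genes were lower and 309 higher, with 0 keratins lower and 0 higher. DESeq2 gave 765 and 1492, with 3 keratins lower (Krt77, Krt1 and Krt10) and 2 higher (Krt2 and Krt79). The same 3 lower keratins were found with no low-count filter (3) and without the pair numbered 1 (3), and limma-voom gave 2 lower and 0 higher. With Xist as a covariate 237 genes were lower and 0 keratins higher, and with at least 1 CPM in 3 libraries 0 keratins were higher. Among the 10 keratins Krt80 alone changed direction, from -0.40 to 0.10 with single libraries left out and to 0.044 without the pair numbered 3; the cause was not tested.

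Replicate numbers are shared by the groups, but same-numbered libraries did not deviate together throughout (correlations of 0.29, 0.089 and -0.076), so they were not taken as pairs. With a replicate block, 3 keratins were lower, Krt77, Krt10 (adjusted p = 0.00041) and Krt1 (0.000583), and 2 were higher, Krt2 and Krt79 (0.00762).

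Other named genes near 0 also changed sign: with single libraries left out Perp ranged from -0.19 to 0.19, Ly6a from -0.34 to 0.53, Slc35c2 from -0.0039 to 0.61, Aimp2 from -0.016 to 0.68, Dst from -0.018 to 0.39 and Ppl from -0.022 to 0.40. Without both replicate-1 libraries Perp was at 0.12, Ly6a at -0.059, Slc35c2 at -0.072 and Aimp2 at -0.11. Without both replicate-3 libraries Dst was at -0.19, Ppl at -0.10, Rn45s at 0.045 and Rnf2 at -0.054, and with Xist as a covariate Perp was at 0.039, Ring1 at 0.034 and Ly6a at -0.44. The cause was not tested. At 1 count per 0.0323 to 0.0392 CPM, values of a few counts, such as those of Krt2 in control (3 to 7 counts), are limited by depth.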
